A study of Mus musculus with 24 samples.

Results

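The TNF superfamily ligands and receptors described here are 10 genes, namely the ligands Tnfsf4, Tnf, Ltb, Tnfsf10 and Fasl and the receptors Tnfrsf1a, Tnfrsf1b, Tnfrsf4, Tnfrsf9 and Tnfrsf18. They were picked out of 21154 named genes by the accession of their array probes, and the list was chosen on log2 ratios of these same arrays, in which Tnfsf4 rose from background after irradiation. All 10 genes had at least 1 probe (12 of 28026 named probes), and each is described by its probe with the highest mean thymocyte signal. The arrays measured thymocyte RNA of C57BL/6J mice of both sexes at 4 to 5 weeks of age. For each sex there were 3 arrays of each of 4 groups, each from 1 of 3 individuals: non-irradiated controls, a low dose (0.075 Gy of X-rays), a high dose (1.75 Gy of γ-rays), and the adaptive regimen (RAR), in which the same X-ray dose was followed after 6 h by the same γ-ray dose. The thymocytes were whole thymus passed through a cell strainer, with no sorting. The labels say that thymocytes were irradiated and the methods that mice were, and the time from the last dose to collection is not given in the sources used here. The study compared the sexes and the regimens to ask whether a priming dose changes the response to a later high dose.

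Each two-colour array compared thymocyte RNA in the Cy5 channel with 1 common reference, a pool of amplified Universal Mouse RNA, in the Cy3 channel, and no dyes were swapped. Values are log2(Cy5/Cy3) unless stated, so they compare arrays for 1 probe and not probes with each other. Between 33.5% and 71.3% of all probes were well above background in Cy5, and both of these extremes were female RAR arrays, whose pairwise correlations of log2 ratios (0.801 to 0.862) included the lowest within any group. All 11 markers of double-positive thymocytes, among them Cd4, Cd8a, Rag1 and Themis, were well above background on all 24 arrays. A change was counted as past the test at an adjusted p under 0.05 with at least a 1.5-fold difference (limma, Benjamini-Hochberg over 55681 probes). The members' differences from control entered the choice of the list, so they are given with their SE as a description and without a p. Of the 6 control arrays 5 were on slide 3, which held no high-dose or RAR array, so slide and treatment were largely confounded in the comparisons of these groups with control. Each array is 1 sample of unsorted cells, so fewer cells of a type and less RNA per cell cannot be told apart.

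TNF superfamily ligands are proteins on the cell surface or shed from it that bind paired receptors on neighbouring cells. Receptors with a death domain, such as Tnfrsf1a, Fas and the TRAIL receptor, can start apoptosis, whereas Tnfrsf1b, Tnfrsf4, Tnfrsf9 and Tnfrsf18 have no death domain and recruit TRAF adaptors that lead to NF-κB. In the thymus the family is known for lymphotoxin and RANK signals to epithelial cells, for costimulation of developing regulatory T cells and for its part in the death of thymocytes.

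The bases before the start sites are shown first for the members that were higher in RAR than in a single dose, and for Ltb, because its window held a match. Of the 10 genes, 9 had a window in the RefSeq table (GRCm38.p6), Tnfsf4 being the exception, and Tnfrsf9 had a window for each of 2 start sites. The 250 bases before each start were searched on both strands for NF-κB as GGGANTTTCC or GGGGNTTTCC, for AP-1 as TGANTCA and for the TATA box as TATAAA. These spellings occur in 0.356%, 0.365%, 6.75% and 12.4% of all 32851 windows. Of the 10 windows of the members, 1 held each of the 4 spellings. In the lines below, read 5′ to 3′ on the gene's strand, matches are in capitals and the last base is next to the start.
Tnfrsf1b (chr4:145246871-145247120, minus strand): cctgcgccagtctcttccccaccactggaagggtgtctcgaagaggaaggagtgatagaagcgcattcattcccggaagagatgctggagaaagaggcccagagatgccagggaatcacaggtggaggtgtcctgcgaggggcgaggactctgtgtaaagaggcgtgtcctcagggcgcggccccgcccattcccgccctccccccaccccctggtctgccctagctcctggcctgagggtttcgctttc
Tnfsf10 (chr3:27316827-27317076, plus strand): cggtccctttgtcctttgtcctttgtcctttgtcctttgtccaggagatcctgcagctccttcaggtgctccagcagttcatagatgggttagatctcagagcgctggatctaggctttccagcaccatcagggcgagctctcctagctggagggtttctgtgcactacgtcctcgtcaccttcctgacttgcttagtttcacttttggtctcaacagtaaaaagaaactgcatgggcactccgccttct
Tnfrsf9 start 1 (chr4:150919905-150920154, plus strand): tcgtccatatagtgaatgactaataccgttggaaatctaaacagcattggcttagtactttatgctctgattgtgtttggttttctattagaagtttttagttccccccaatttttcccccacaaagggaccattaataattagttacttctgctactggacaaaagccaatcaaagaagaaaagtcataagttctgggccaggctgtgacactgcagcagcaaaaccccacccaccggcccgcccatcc
Tnfrsf9 start 2 (chr4:150927749-150927998, plus strand): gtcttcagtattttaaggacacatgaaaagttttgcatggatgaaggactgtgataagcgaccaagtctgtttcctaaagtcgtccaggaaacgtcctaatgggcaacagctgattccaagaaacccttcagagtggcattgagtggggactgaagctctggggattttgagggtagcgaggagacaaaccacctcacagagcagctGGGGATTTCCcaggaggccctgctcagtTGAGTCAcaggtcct
Tnf (chr17:35202008-35202257, minus strand): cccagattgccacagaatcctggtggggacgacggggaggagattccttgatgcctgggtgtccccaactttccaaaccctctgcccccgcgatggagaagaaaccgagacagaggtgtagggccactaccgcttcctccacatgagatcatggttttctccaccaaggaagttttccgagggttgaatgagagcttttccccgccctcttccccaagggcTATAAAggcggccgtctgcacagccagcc
Ltb (chr17:35194257-35194506, plus strand): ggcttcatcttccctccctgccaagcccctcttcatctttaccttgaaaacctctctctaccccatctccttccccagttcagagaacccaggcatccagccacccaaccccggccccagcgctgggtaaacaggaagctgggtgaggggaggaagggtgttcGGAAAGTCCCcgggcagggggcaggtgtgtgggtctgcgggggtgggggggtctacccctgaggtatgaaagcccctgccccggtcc
The first Tnfrsf9 window and those of Tnfrsf1b and Tnfsf10 held none of the 4 spellings. The second Tnfrsf9 window held GGGGATTTCC, from base 43 to base 34 before the start, and TGAGTCA, from base 15 to base 9. The Ltb window held GGAAAGTCCC, the NF-κB spelling on the opposite strand, from base 87 to base 78. The Tnf window held TATAAA from base 29 to base 24. These matches describe letters only. In the same assembly Tnf and Ltb lie near each other on chromosome 17 with 1 gene between them, Tnfrsf4 and Tnfrsf18 on chromosome 4 with 2 genes between them, and Tnfsf4 and Fasl on chromosome 1 with 6 genes between them.

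Tnfsf4, the OX40 ligand, a costimulator of T cells, went from background in controls to a clear signal in every irradiated group. Its Cy5 signal was not well above background on any of the 6 control arrays and was well above background on all 18 irradiated arrays. The log2 ratios were 0.08, 0.27 and 0.09 in female controls and -0.03, -0.23 and 0.06 in male controls. After the low dose they were 4.15, 4.60 and 4.96 in females and 4.98, 4.48 and 4.73 in males. After the high dose they were 4.87, 5.07 and 5.31 in females and 5.23, 4.34 and 4.99 in males. All single-dose arrays of both sexes lay far above all controls and overlapped with each other. In RAR they were 5.20, 3.39 and 2.94 in females and 5.48, 6.16 and 4.96 in males, so the female RAR arrays spread widely.

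**Figure D1:**
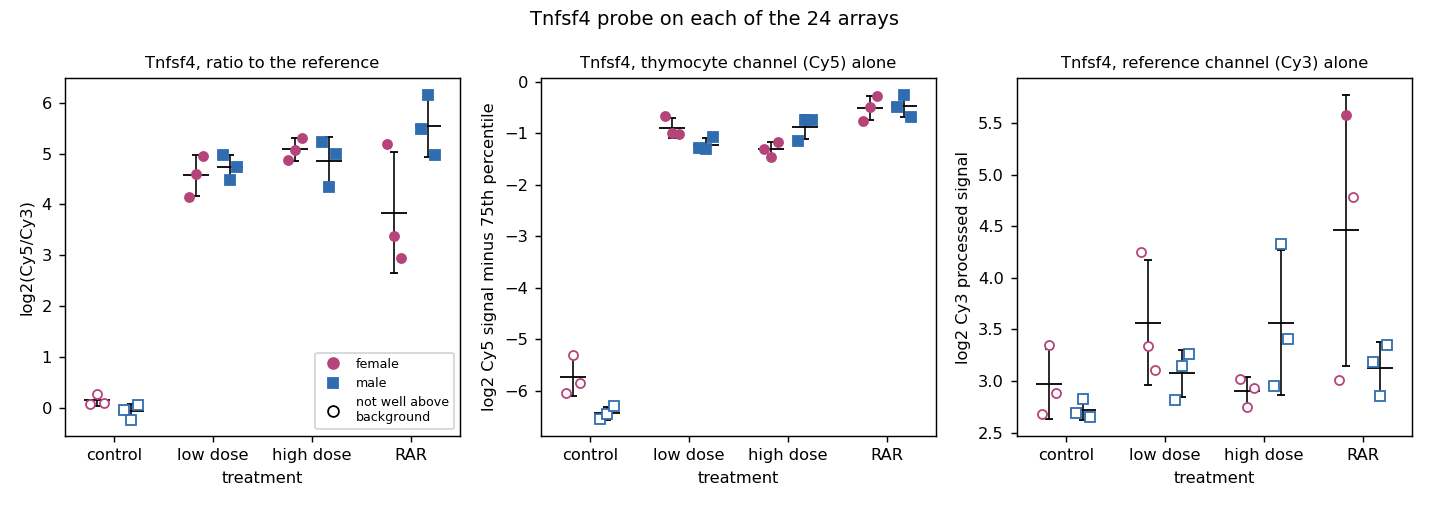
Tnfsf4 on each of the 24 arrays, by treatment and sex: log2(Cy5/Cy3) (left), log2 Cy5 signal minus the array's 75th percentile (middle) and log2 Cy3 signal (right). Points are arrays, black bars are means ± SD of 3 arrays, and open points are signals not well above background in Cy5 (left and middle) or Cy3 (right). Controls sit between -0.23 and 0.27 on the left and irradiated arrays between 2.94 and 6.16, and the 2 highest Cy3 signals on the right, 5.58 and 4.79, are female RAR arrays.

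Because the control signal was at background, a ratio of the thymocyte channel gives a lower bound only. The fitted log2 differences from control, 4.61 for the low dose, 4.93 for the high dose and 4.65 for RAR, had no fixed size, since with normexp background correction on the raw signals they were 1.35, 1.34 and 1.63. With the signal of each control array set to the lowest signal that was well above background there, Tnfsf4 was at least 7.03-fold higher than control after the low dose, at least 6.45-fold higher after the high dose and at least 8.77-fold higher in RAR. In that comparison the mean log2 Cy5 signals after quantile scaling were 8.07, 7.95 and 8.39 in the 3 irradiated groups, the measured control mean was 3.31 and the bound used for control was 5.26. The bounds were 6.09-fold, 4.37-fold and 6.67-fold in females and 8.10-fold, 9.52-fold and 11.5-fold in males, in the same order.

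No difference in Tnfsf4 between the single doses was detectable with these arrays. High dose minus low dose was 0.32 (95% interval -0.31 to 0.95, adjusted p = 0.882). RAR minus high dose was -0.28 (95% interval -0.91 to 0.35, adjusted p = 0.567) and RAR minus low dose was 0.04 (95% interval -0.59 to 0.67, adjusted p = 0.956). The direction of RAR against high dose depended on the processing. In the Cy5 channel alone RAR was higher by 0.60 and past the test (adjusted p = 0.00244), and with normexp on both channels it was higher by 0.29 (adjusted p = 0.00185), under 1.5-fold. With quantile normalization the difference was -0.35 (adjusted p = 0.449). RAR minus low dose was 0.28 with normexp (adjusted p = 0.00286) and -0.25 with slide as a block (adjusted p = 0.828). In the Cy5 channel alone the median over all probes was itself 0.31 for RAR against the high dose and 0.29 for RAR against the low dose. Over named genes above background the medians there were -0.08 and -0.12. After dropping each group's most distant value, RAR was lower than the high dose by a difference of -0.85 (adjusted p = 0.000708) and lower than the low dose by one of -0.62 (adjusted p = 0.00463), and without female RAR replicate 1 the first was -0.62 (adjusted p = 0.0442). RAR against low dose in the Cy5 channel alone was 0.57, short of 1.5-fold (adjusted p = 0.00274). By treatment means the order was high dose (4.97 ± 0.35, SD, n = 6), RAR (4.69 ± 1.26), low dose (4.65 ± 0.31) and control (0.04 ± 0.16), and the 3 irradiated means lay within each other's spread.

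Between the sexes, Tnfsf4 was higher in male than in female RAR by 1.69 in log2 ratio (95% interval 0.81 to 2.58), which did not pass the test (adjusted p = 0.108). The study singled out this gene for that comparison on these samples, so the value is no independent evidence. The log2 Cy3 signals of the probe were 3.01, 5.58 and 4.79 in female RAR and 3.18, 2.86 and 3.35 in male RAR, and only the 5.58 was well above background among all 24 arrays. The thymocyte signals themselves, as log2 Cy5 minus the array's 75th percentile, were -0.76, -0.49 and -0.29 in female RAR and -0.49, -0.25 and -0.68 in male RAR. In the Cy5 channel alone the difference between the sexes was 0.03 (adjusted p = 0.938), and the arrays of both sexes overlapped. The part of the reference signal in the difference of the ratios was not tested. With normexp the difference between the sexes in RAR was 0.24. The log2 ratio passed the test without female RAR replicate 1 (2.37, adjusted p = 0.000509) and after dropping each group's most distant value (2.06, adjusted p = 0.000124). Both settings leave only the female RAR arrays with Cy3 signals of 5.58 and 4.79. Without female RAR replicates 1 and 3, a setting chosen after seeing the data, the difference was 2.15. That setting leaves 1 female RAR array, the one with the Cy3 signal of 5.58. Of all probes, 0.438% passed for male against female RAR.

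Of 14653 named genes well above background on all arrays of some group, the 5 whose log2 ratios followed Tnfsf4 most closely over the 8 group means were Castor2 (r = 0.993), Rgs12 (0.987), Dglucy (0.986), Olfr1229 (0.984) and Celf5 (0.981). These correlations describe 8 means that share arrays and fall into controls and irradiated groups. The sizes differed widely, from 0.74 for Castor2 to 3.72 for Dglucy after the low dose. All 5 probes were well above background in Cy3 on all 24 arrays, unlike that of Tnfsf4.

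Fasl, the Fas ligand, a death ligand of cytotoxic T cells, had a measurable thymocyte signal on all 24 arrays and a reference signal that was well above background on none. Its log2 ratios ran from 3.48 to 4.79 in controls (median 4.47), from 3.65 to 5.89 after the low dose (5.19), from 4.61 to 5.82 after the high dose (5.25) and from 2.84 to 5.94 in RAR (4.31). All treatments overlapped. RAR minus high dose was -0.79 (95% interval -1.62 to 0.04, adjusted p = 0.179) and RAR minus low dose was -0.54 (95% interval -1.37 to 0.29, adjusted p = 0.402). In the Cy5 channel alone the first of these was near 0, with an adjusted p of 0.993, and with normexp they were -0.10 and -0.09. Male RAR exceeded female RAR by 1.40 (95% interval 0.23 to 2.58, adjusted p = 0.329), by 0.19 in the Cy5 channel alone, by 0.06 with normexp, and after dropping each group's most distant value by 1.39 (adjusted p = 0.00419).

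Several members were higher in the adaptive regimen than after a single dose. Against the high dose, 3 of the 10 members were higher in RAR past the test (Tnfrsf1b, Tnfsf10 and Tnfrsf9) and none was lower. Against the low dose, 4 were higher (those 3 and Tnf) and none was lower. Among all probes, 9.52% and 9.07% passed in either direction. Among named genes above background, 8.32% and 8.46% were called higher. The members' median difference was 0.27 against the high dose and 0.34 against the low dose, where the medians of all those genes were -0.08 and -0.09. Both comparisons share the RAR arrays. The list was chosen on log2 ratios of all these arrays, RAR and single doses included. The members' counts, medians and p in these comparisons are therefore a description and no independent evidence. At an adjusted p under 0.05 with no demand on the fold, 6 of 10 members differed in each comparison.

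**Figure D2:**
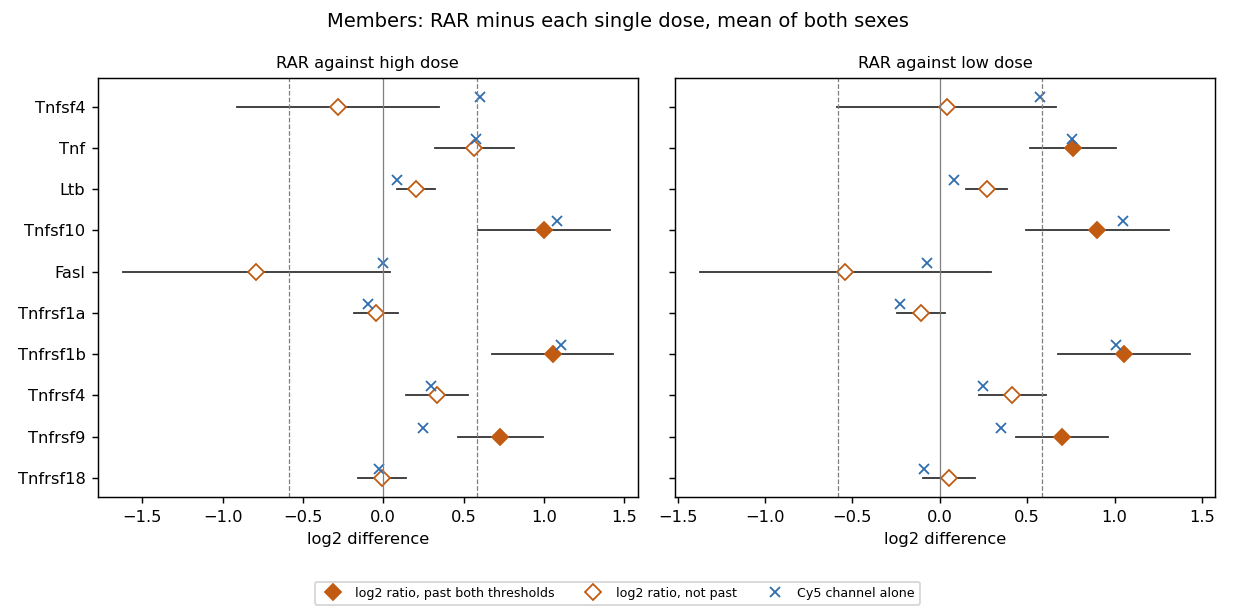
RAR minus high dose (left) and RAR minus low dose (right) for the 10 members, as log2 differences averaged over both sexes. Diamonds are log2(Cy5/Cy3) differences with 95% intervals, filled where they passed the test, crosses are the same differences in the Cy5 channel alone, and dashed lines mark 1.5-fold. Tnfrsf1b and Tnfsf10 lie near 1 in both panels, with crosses close to their diamonds, whereas the crosses of Tnfrsf9 fall at 0.25 and 0.35.

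Tnfrsf1b, the second TNF receptor, found on T cells and myeloid cells, showed the largest increase. By array its log2 ratios ran from 0.06 to 0.54 in controls (median 0.32), from -0.10 to 1.07 after the low dose (0.73), from 0.26 to 0.96 after the high dose (0.65) and from 1.24 to 2.02 in RAR (1.78). Every RAR array of both sexes lay above every array of the other 3 treatments. RAR exceeded the high dose 2.08-fold (log2 difference 1.05, SE 0.18, adjusted p = 0.000362) and the low dose 2.08-fold (1.06, SE 0.18, adjusted p = 0.000298). The difference from the high dose was 1.03 in females (adjusted p = 0.0136) and 1.08 in males (adjusted p = 0.0105). Within slides it was 0.87 on slide 1 (4 arrays against 4) and 1.43 on slide 2 (2 against 2), and with slide as a block 1.05 (adjusted p = 0.000419). The sexes were not balanced within slides, here and for the members below. High-dose arrays were all male on slide 2 and mostly female on slide 1, whereas RAR had both sexes on each. On female RAR replicate 3, on slide 2, the reference signals of Tnfrsf1b, Tnfsf10 and Tnf were not well above background. The single doses differed from control by 0.31 each and RAR by 1.36 (SE 0.18), and with slide as a block these differences were 0.39 for the low dose, 0.72 for the high dose and 1.78 for RAR.

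Tnfsf10, known as TRAIL, a ligand that triggers apoptosis through death receptors, was also higher in RAR than after either single dose. The log2 ratios ran from 2.89 to 3.54 in controls (median 3.36), from 2.47 to 3.58 after the low dose (3.00), from 2.44 to 3.39 after the high dose (2.92) and from 3.57 to 4.60 in RAR (3.86). RAR lay above the high dose and the controls on all arrays, and 1 low-dose array of males (3.58) reached the lowest RAR array. RAR was 2.00-fold the high dose (1.00, SE 0.20, adjusted p = 0.00117) and 1.87-fold the low dose (0.90, SE 0.20, adjusted p = 0.00236). In males the difference from the high dose was 1.14 (adjusted p = 0.0133), and in females it was 0.86 (adjusted p = 0.0517). Within slides RAR exceeded the high dose by 0.70 on slide 1 and by 1.59 on slide 2. The slide 2 value included female RAR replicate 3 (4.60), where 33.5% of all probes were well above background in Cy5. Against control the differences were -0.24 for the low dose, -0.34 for the high dose and 0.66 for RAR (SE 0.20). With slide as a block they were -0.19, 0.06 and 1.06, so that of the high dose turned its direction.

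Tnf, the cytokine that gave the family its name, was higher in RAR by a smaller amount. Its log2 ratios ran from 0.10 to 0.67 in controls (median 0.47), from -0.20 to 0.67 after the low dose (0.54), from 0.36 to 0.83 after the high dose (0.61) and from 0.91 to 1.42 in RAR (1.14). The RAR arrays of both sexes did not overlap with any other treatment. RAR was 1.70-fold the low dose (0.76, SE 0.12, adjusted p = 0.00012). Against the high dose the difference was 0.57 (SE 0.12, adjusted p = 0.00178), just under 1.5-fold, and it passed that size in some settings, such as quantile normalization (0.59) and without female RAR replicate 1 (0.61), female RAR replicate 2 (0.59), female high dose replicate 3 (0.60), male RAR replicate 3 (0.60) or male high dose replicate 1 (0.60). Against the low dose it fell under 1.5-fold after dropping each group's most distant value (0.56, adjusted p = 5.47e-05). In males RAR exceeded the high dose by 0.72 (adjusted p = 0.00952), and in females by 0.41 (adjusted p = 0.121). Within slides the difference from the high dose was 0.43 on slide 1 and 0.84 on slide 2. The differences from control were -0.02 for the low dose, 0.17 for the high dose and 0.74 for RAR (SE 0.12).

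Ltb, which forms the lymphotoxin heterotrimer with lymphotoxin α, had the tightest values of the ligands and small steps. By array its log2 ratios ran from 3.26 to 3.47 in controls (median 3.30), from 3.55 to 3.69 after the low dose (3.65), from 3.65 to 3.76 after the high dose (3.69) and from 3.82 to 4.0 in RAR (3.89). No RAR array overlapped with another treatment, yet the differences of 0.20 from the high dose (adjusted p = 0.0143) and 0.27 from the low dose (adjusted p = 0.00199) were below 1.5-fold (SE 0.06 each). In the Cy5 channel alone they fell to 0.09 (adjusted p = 0.308) and 0.08 (adjusted p = 0.352). With quantile normalization they were 0.07 (adjusted p = 0.704) and 0.17 (adjusted p = 0.326). The differences from control were 0.32, 0.38 and 0.58 for the low dose, the high dose and RAR (SE 0.06), and 0.13, 0.13 and 0.22 in the Cy5 channel alone.

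**Figure D3:**
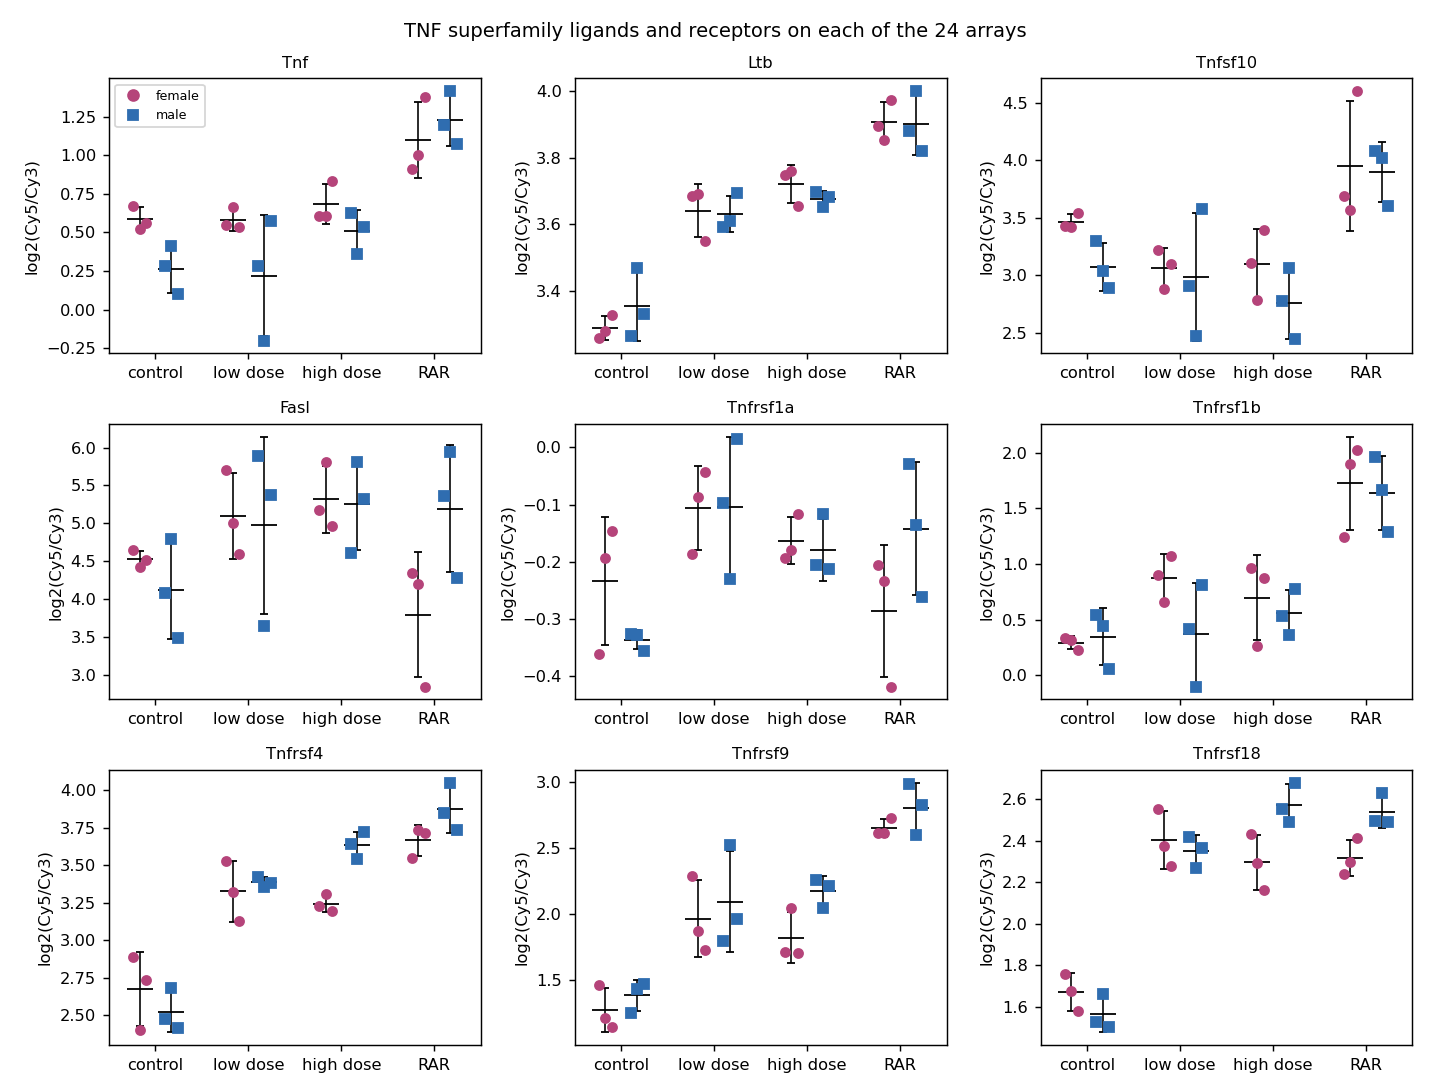
log2(Cy5/Cy3) of the 9 members other than Tnfsf4 on each array, by treatment, with 3 female and 3 male arrays in each. Points are arrays and black bars are means ± SD of 3 arrays, and each panel has its own scale. RAR arrays lie above all others for Tnf (0.91 to 1.42), Tnfrsf1b (1.24 to 2.02) and Tnfrsf9 (2.60 to 2.99), whereas for Tnfrsf18 the 3 irradiated treatments overlap and lie above controls.

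Tnfrsf9, also called CD137, a costimulatory receptor induced on activated T cells, stepped up at the single doses and again in RAR on its brighter probe (A_55_P2029061). The log2 ratios ran from 1.14 to 1.47 in controls (median 1.34), from 1.73 to 2.53 after the low dose (1.92), from 1.71 to 2.26 after the high dose (2.05) and from 2.60 to 2.99 in RAR (2.67). The 3 levels did not overlap, the single doses sharing the middle one. RAR exceeded the high dose 1.66-fold (0.73, SE 0.12, adjusted p = 0.000383) and the low dose 1.62-fold (0.70, SE 0.12, adjusted p = 0.000474). The difference from the high dose passed in both sexes, with 0.83 in females (adjusted p = 0.00592) and 0.63 in males (adjusted p = 0.0298), and it was 0.73 on slide 1 and 0.73 on slide 2. In the Cy5 channel alone it was 0.25 (adjusted p = 0.0664), and the difference from the low dose was 0.35 (adjusted p = 0.0155), so neither was past the test there. With quantile normalization both fell under 1.5-fold (0.58 and 0.53). The second probe, A_55_P2082180, did not show these steps: its ratios ran from -0.12 to 1.33 over all arrays, and RAR minus high dose was 0.03 (95% interval -0.38 to 0.44, adjusted p = 0.933). The differences of the brighter probe from control were 0.70, 0.67 and 1.40 for the low dose, the high dose and RAR (SE 0.12), of which the first and last were 0.38 and 0.72 in the Cy5 channel alone, and those of the second probe 0.17, 0.17 and 0.20 (SE 0.19).

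Tnfrsf4, known as OX40 and the receptor of Tnfsf4, is carried by activated and regulatory T cells. Its log2 ratios ran from 2.40 to 2.89 in controls (median 2.58), from 3.13 to 3.53 after the low dose (3.37), from 3.19 to 3.72 after the high dose (3.43) and from 3.55 to 4.05 in RAR (3.74). All irradiated arrays lay above all controls, and the RAR arrays lay above the low-dose arrays but overlapped with the high dose. RAR minus high dose was 0.33 (SE 0.09, adjusted p = 0.0128) and RAR minus low dose was 0.42 (SE 0.09, adjusted p = 0.00253), both below 1.5-fold. With quantile normalization these became 0.19 (adjusted p = 0.339) and 0.30 (adjusted p = 0.112). The differences from control were 0.76, 0.84 and 1.17 for the low dose, the high dose and RAR (SE 0.09).

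Tnfrsf18, known as GITR, a receptor of regulatory and activated T cells, lay at overlapping levels in all irradiated treatments. By array its log2 ratios ran from 1.5 to 1.76 in controls (median 1.62), from 2.27 to 2.56 after the low dose (2.37), from 2.16 to 2.68 after the high dose (2.46) and from 2.24 to 2.63 in RAR (2.45). Irradiated arrays of every kind lay above all controls. RAR minus high dose was -0.01 (95% interval -0.16 to 0.14, adjusted p = 0.959) and RAR minus low dose was 0.05 (95% interval -0.10 to 0.20, adjusted p = 0.701). The differences from control were 0.76, 0.82 and 0.81 for the low dose, the high dose and RAR (SE 0.07), the last being 0.51 with quantile normalization.

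Tnfrsf1a, the death-domain receptor of Tnf, differed little between treatments. The log2 ratios ran from -0.36 to -0.15 in controls (median -0.33), from -0.23 to 0.02 after the low dose (-0.09), from -0.21 to -0.12 after the high dose (-0.19) and from -0.42 to -0.03 in RAR (-0.22). RAR minus high dose was -0.04 (95% interval -0.18 to 0.09, adjusted p = 0.707) and RAR minus low dose was -0.11 (95% interval -0.25 to 0.03, adjusted p = 0.289). Differences of 1.5-fold lay outside both intervals. The second probe of the gene gave -0.09 and -0.07. Against control the first probe differed by 0.18, 0.11 and 0.07 for the low dose, the high dose and RAR (SE 0.07), and in the Cy5 channel alone by 0.07, -0.06 and -0.16, so the direction was not settled.

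Between the high dose and the low dose none of the 10 members passed the test, where 0.00359% of all probes (2 of 55681) passed and 3791 had an unadjusted p under 0.05. The largest difference among members was that of Tnfsf4 given above. No member passed for male against female RAR, nor for male against female over all treatments, where 0.424% of all probes passed. The interaction of sex and treatment, which 0.00359% of all probes passed (2 at an adjusted p under 0.05 and 3614 at an unadjusted p under 0.05), gave adjusted p from 0.720 for Tnfsf4 to 0.957 for Ltb. The differences from control entered the choice of the list, so nothing is read from how many members met the call rule there, which was 4 at each single dose (Tnfsf4, Tnfrsf4, Tnfrsf9 and Tnfrsf18) and 7 in RAR (these 4 with Tnf, Tnfrsf1b and Tnfsf10), beside 9.92%, 11.5% and 26.0% of all probes for the low dose, the high dose and RAR. The comparisons with control share the same 6 control arrays.

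Some markers of other cell types moved with RAR. For RAR against the high dose, 1219 of 14653 named genes above background (8.32%) were called higher and 932 lower. Of 11 macrophage and monocyte markers, 8 were higher in RAR than after the high dose, and their summed Cy5 signal, in units of each array's 75th percentile, was 377 to 558 in RAR, 147 to 304 after the high dose, 172 to 344 after the low dose and 104 to 181 in controls. Among them Csf1r was higher in RAR than after the high dose by 1.03, Cd68 by 1.47 and Fcgr1 by 2.63. Of 7 mature T cell markers, 4 were higher, with sums of 122 to 155 in RAR, 87.1 to 115 after the high dose and 89.3 to 108 after the low dose. Of 6 regulatory T cell markers none was higher and 1, Ctla4, was lower (-1.35), with sums of 15.2 to 18.1 in RAR and 15.5 to 18.2 after the high dose. Of 8 dendritic cell markers 3 were higher, with sums of 720 to 937 in RAR and 484 to 635 after the high dose, and of 7 markers of NK and cytotoxic cells none was. Of 7 neutrophil markers 2 were higher, S100a8 by 0.84 and S100a9 by 0.63. The others, Ltf, Camp, Ngp, Cxcr2 and Retnlg, had differences from -0.73 to -0.31, not past the test. The median of the list was -0.31. In RAR against the low dose, 1 of the 7 was higher and 3 were lower. Their sums were 71.7 to 214 in RAR, 69.1 to 127 after the high dose, 78.1 to 113 after the low dose and 20.9 to 44.4 in controls. Of 10 thymic epithelial cell markers 3 were higher (Krt5, Krt8 and Krt14, by 0.66 to 1.01) and 1, Prss16, was lower (-0.71), with sums of 29.8 to 52.4 in RAR and 37.7 to 46.0 after the high dose. None of 11 double-positive thymocyte markers passed the test for RAR against the high dose. Their median difference in log2 ratio was 0.03, where that of all named genes above background was -0.08. Their summed Cy5 signal, in which the brightest probes weigh most, was 696 to 970 in RAR against 1070 to 1250 after the high dose. All 11 macrophage and monocyte markers and all 7 mature T cell markers had a signal well above background on at least 1 array, and the part of these cells in the differences of Tnfrsf1b, Tnfsf10, Tnf and Tnfrsf9 was not tested.

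Of 12 other ligands on the arrays, 2 rose after the low dose, 2 after the high dose and 2 in RAR, where 1 fell. Among named genes above background, 7.21%, 8.05% and 17.2% were called higher in these comparisons, and the count of rises in RAR was near that share. Called lower in RAR were 3539 of 14653 such genes. Of the 12 ligands, 8 were above background by the same rule. Tnfsf8, the CD30 ligand, rose most, by 2.89 after the low dose (SE 0.42, adjusted p = 5.51e-05), by 2.88 after the high dose (adjusted p = 4.47e-05) and by 3.45 in RAR (adjusted p = 1.87e-06), and with normexp by 1.70, 1.92 and 2.77. Its reference signal, like that of Tnfsf4, was well above background on no more than 1 array (0 of 24). Tnfsf15, a ligand of the death-domain receptor Tnfrsf25, rose by 0.71 after the low dose (adjusted p = 0.0244) and by 1.09 in RAR (adjusted p = 0.000455). It was the 1 of the 12 other ligands past the test for RAR against the high dose (0.67, adjusted p = 0.0348), a count near the 8.32% of named genes called higher there. With normexp the differences of Tnfsf15 after the low dose (0.40, adjusted p = 0.0074) and against the high dose (0.43, adjusted p = 0.00535) were under 1.5-fold. The call after the low dose was also lost with slide as a block (adjusted p = 0.0614) and without female control replicate 3, female low dose replicate 1 or 3, male control replicate 1 or 3, or male low dose replicate 1 or 2 (adjusted p from 0.0521 to 0.0758). That against the high dose was also lost without female RAR replicate 1 or 3, female high dose replicate 2 or 3, male RAR replicate 1 or 3, or male high dose replicate 1 or 2 (adjusted p from 0.0579 to 0.0957), and without female RAR replicates 1 and 3 (0.45, adjusted p = 0.279). Tnfsf12, also known as TWEAK, rose by 0.64 after the high dose (adjusted p = 2.34e-05), and by just under 1.5-fold without male high dose replicate 1 (0.58) or with slide as a block (0.48). Tnfsf11, the RANK ligand that mature thymocytes show to epithelial cells, fell in RAR by 1.39 on the log2 scale (SE 0.32, adjusted p = 0.00182) and was lower in RAR than after the low dose by a difference of -1.37 (adjusted p = 0.00457), with a reference signal well above background on 1 of 24 arrays. With normexp these differences were -0.50 (adjusted p = 1.03e-05) and -0.47 (adjusted p = 6.8e-05), under 1.5-fold.

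**Figure D4:**
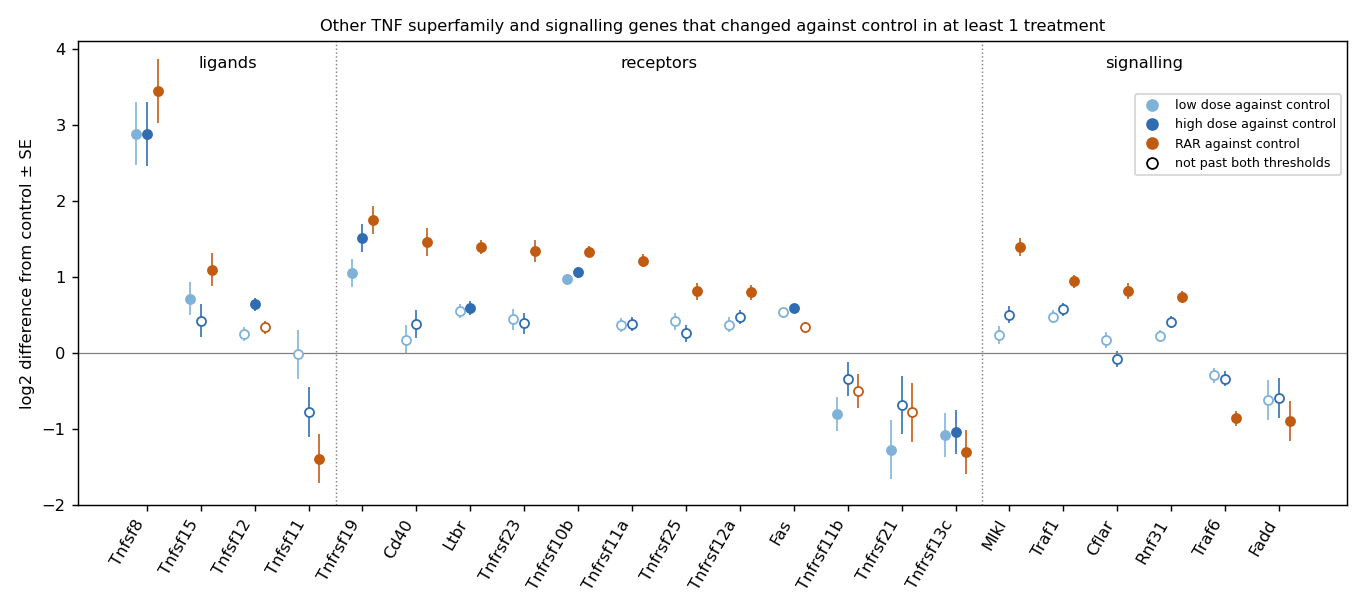
Log2 difference from control (± SE) after the low dose, after the high dose and in RAR for the other TNF superfamily ligands, receptors and signalling genes that passed the test in at least 1 of these comparisons. Filled points passed the test and open points did not. Among receptors, Tnfrsf10b and Tnfrsf19 were past it in all 3 comparisons on the higher side, whereas Cd40 (1.46), Tnfrsf23 (1.34) and Tnfrsf11a (1.21) were past it in RAR and not at the single doses.

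Of 23 other receptors, 19 were well above background on all arrays of some group. Of the 23, 2 rose and 3 fell after the low dose, and 4 rose and 1 fell after the high dose. In RAR 8 rose and 1 fell. Beside these, 7.21%, 8.05% and 17.2% of named genes above background were called higher, to which the count of rises after the low dose was close. Called lower were 1245, 1423 and 3539 of 14653 such genes for the low dose, the high dose and RAR. Among the rises in RAR, those of Tnfrsf25 (0.51) and Tnfrsf12a (0.44) were under 1.5-fold with quantile normalization. That of Tnfrsf12a was also under it in the Cy5 channel alone (0.49). The TRAIL receptor Tnfrsf10b, a known target of p53, rose by 0.97 after the low dose (SE 0.07, adjusted p = 4.59e-08), by 1.06 after the high dose (adjusted p = 1.17e-08) and by 1.33 in RAR (adjusted p = 1.44e-10). Tnfrsf19 rose by 1.05, 1.51 and 1.75 in that order (SE 0.18), of which the first was 0.56 with normexp (adjusted p = 0.000215), under 1.5-fold. Fas, the receptor of Fasl, rose after the high dose by 0.59 (SE 0.06, adjusted p = 1.45e-06), which is 1.5-fold and fell under the fold threshold in the Cy5 channel alone (0.39), with quantile normalization (0.53) and without female control replicate 1 or 2, female high dose replicate 1 or 3, male control replicate 2, or male high dose replicate 2 or 3 (0.55 to 0.58). Ltbr, the lymphotoxin receptor, rose there by 0.59 (SE 0.10, adjusted p = 0.000154). It lost that call with slide as a block (0.54, adjusted p = 0.054), in the Cy5 channel alone (0.43), with quantile normalization (0.52), with normexp (0.57), after dropping each group's most distant value (0.47) and without female control replicate 3, female high dose replicate 1, male control replicate 3 or male high dose replicate 3 (0.54 to 0.58). The mean log2 ratios of Ltbr were -3.54 in controls, -2.99 after the low dose, -2.95 after the high dose and -2.15 in RAR. Tnfrsf13c, the BAFF receptor of B cells, fell by 1.08, 1.05 and 1.31 on the log2 scale in the same order (SE 0.29). Of 7 B cell markers, 4 fell in RAR against control, where 3539 of 14653 named genes above background were called lower. The probe of Cd79a, 1 of these 4, had a Cy5 signal clear of background on only 4 of 24 arrays. Ebf1 (0.83), Pax5 (0.36) and Blk (-1.19) did not pass the test. The part of B cells in the fall of Tnfrsf13c was not tested. With normexp the differences of Tnfrsf13c were -0.36 (adjusted p = 0.00365), -0.30 (adjusted p = 0.0131) and -0.43 (adjusted p = 0.000276), all under 1.5-fold. That of the high dose was also not past the test in the Cy5 channel alone (-0.64, adjusted p = 0.0531), and those of the high dose and RAR were not with slide as a block (adjusted p = 0.43 and 0.156). Tnfrsf11b, the soluble decoy of Tnfsf11, fell after the low dose by 0.81 on the log2 scale (adjusted p = 0.0135) and Tnfrsf21 fell by 1.28 (adjusted p = 0.0223), on probes whose Cy5 signal was well above background on 8 and 12 of 24 arrays. Neither reached 1.5-fold with normexp, which gave -0.08 (adjusted p = 0.451) and -0.26 (adjusted p = 0.021). The call on Tnfrsf21 was also lost without female control replicate 2 or 3, female low dose replicate 2, or male control replicate 1 (adjusted p from 0.0573 to 0.0661).

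Receptors outside the list also differed between RAR and the single doses. Against the high dose 4 of 23 were higher and none lower, and against the low dose 5 were higher and none lower. Among named genes above background, 8.32% and 8.46% were called higher in these comparisons. Cd40, the receptor through which T cells activate antigen-presenting cells, was higher in RAR by 1.08 than after the high dose (SE 0.19, adjusted p = 0.000403) and by 1.29 than after the low dose (adjusted p = 6.87e-05). Tnfrsf23, a decoy receptor of TRAIL, was higher by 0.95 (SE 0.14, adjusted p = 9.7e-05) and 0.90 (adjusted p = 0.00013), and so were Tnfrsf11a, known as RANK (0.84 and 0.86, SE 0.09), and Ltbr (0.80 and 0.84, SE 0.10). Tnfrsf19 was higher than after the low dose by 0.70 (SE 0.18, adjusted p = 0.00913), but under 1.5-fold with normexp (0.50, adjusted p = 0.000717). Without female RAR replicates 1 and 3 the difference was 0.52, also under 1.5-fold. The medians over the 23 receptors were 0.09 and 0.28, where those of all named genes above background were -0.08 and -0.09.

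Of 22 genes of receptor-proximal signalling, none passed the test at either single dose, and in RAR 4 rose and 2 fell against control. This share lay near the background of 17.2% of named genes called higher and 26.0% of all probes called in either direction, and is not a result about these genes. Mlkl, the effector of necroptosis, rose by 1.39 (SE 0.12, adjusted p = 1.91e-08), and Traf1, an adaptor induced by NF-κB, by 0.94 (SE 0.09, adjusted p = 5.49e-08). Cflar, which encodes c-FLIP, an inhibitor of death receptor signalling, rose by 0.81 (SE 0.11, adjusted p = 4.59e-06), and Rnf31, a subunit of the linear ubiquitin ligase, by 0.74 (SE 0.08, adjusted p = 3.88e-07). Cflar was under 1.5-fold with quantile normalization (0.54) and Rnf31 in the Cy5 channel alone (0.51). Traf6 fell by 0.87 on the log2 scale (SE 0.10, adjusted p = 1.46e-06), with a difference of -0.57 under normexp (adjusted p = 1.9e-07). Fadd, the adaptor of death receptors, fell by 0.90 on the log2 scale (SE 0.26, adjusted p = 0.0103). The call on Fadd did not hold in the Cy5 channel alone (-0.09, adjusted p = 0.92), with normexp (-0.48, adjusted p = 0.0522), with slide as a block (-0.61, adjusted p = 0.359) or with quantile normalization (-0.73, adjusted p = 0.0566). Of the 22, Mlkl and Cflar were also past the test for RAR against both single doses, Mlkl by 0.89 over the high dose (adjusted p = 3.29e-05) and 1.16 over the low dose (adjusted p = 1.38e-06), and Cflar by 0.89 (adjusted p = 1.21e-05) and 0.64 (adjusted p = 0.000237), the last falling to 0.50 with quantile normalization. This count of 2 lay near the 8.32% and 8.46% of named genes above background called higher there, and is not a result about these genes.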

How the data were processed

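Thymocyte RNA (Cy5) was hybridised against a common reference (Cy3) on 24 two-colour Agilent arrays, 8 on each of 3 slides. The authors deposited the scanner's intensity values of each spot, background-subtracted and dye-normalized by Feature Extraction (version 11.5.1.1 per the file headers), and a log2 ratio table (Cy5 over Cy3), 99.8% of which lay within 0.01 of the log2 ratio of those signals. The log2 ratios were computed here from the processed signals, control spots and outlier spots (183 to 368 per array) were left out, and spots of 1 probe were averaged. Means of the 8 groups of sex and treatment were estimated in limma (3.58.1, under R 4.3.3) with Benjamini-Hochberg adjustment over all 55681 probes. Lower bounds used Cy5 after quantile scaling of the average intensities. The number of arrays limits the precision. The members, the gene lists, the markers, the motifs and the tests were chosen with earlier results of these data known. Named genes were all members, up to 8 called genes of each other list and comparison by size, and the 5 genes most like Tnfsf4. Tnfrsf12a was named in addition, as a call that weakened. Alternatives were background correction with normexp (offset 50, then loess), quantile normalization, the Cy5 channel alone, the deposited table, filters on dim and outlier spots, slide and replicate blocks, the most distant value of each group dropped, a larger fold and each array left out. The script was tested on simulated data.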

Additional observations from a re-analysis of the deposited data

How the results depend on the processing

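The calls on Tnfrsf1b and Tnfsf10 in RAR against either dose kept their direction and passed under every alternative run except a log2 threshold of 1.5, which no member reached in these comparisons. The difference of Tnfsf4 between RAR and the high dose turned to 0.60 in the Cy5 channel alone and to 0.29 with normexp, and that between RAR and the low dose turned to -0.62 after dropping each group's most distant value. That last setting removes 1 of 3 values of each group and so narrows the spread by construction. With normexp an offset of 50 was added to both channels, which draws the ratios of dim probes toward 0 by construction. For all other moved counts the cause was not tested. The reference signal of Tnfsf4 and Fasl near background limits their ratios.

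The counts of probes past the test moved as follows. For RAR against the high dose, 5303 became 2359 with normexp, 11909 in the Cy5 channel alone, 12697 with the most distant values dropped and 471 at a log2 change over 1.5, and the share of higher calls went from 55.6% to 85.8% with normexp and 84.2% in Cy5 alone. For RAR against the low dose, 5050 became 2513, 8995, 12153 and 469 in the same order and 3225 with slide as a block, with 52.7% higher calls becoming 82.3% and 73.6%. For the high dose against the low dose, 2 became 18 with normexp, 0 with quantile normalization, 0 in Cy5 alone, 1 among probes well above background, 0 with the slide block, 6935 with the most distant values dropped, 5 without female RAR replicates 1 and 3 (a setting chosen after seeing the data) and 1 at the larger fold. For the high dose against control, 6414 became 2901 with normexp, 3324 with the slide block, 13522 with the most distant values dropped and 807 at the larger fold. For the low dose against control, 5526 became 2354 with normexp, 11688 with the most distant values dropped and 634 at the larger fold. For RAR against control, 14501 became 7224 with normexp, 26431 in Cy5 alone and 2924 at the larger fold. For male against female RAR, 244 became 385 with quantile normalization, 1743 in Cy5 alone, 10395 with the most distant values dropped and 1404 without the 2 female RAR arrays. Over all treatments the 236 of male against female became 138 with normexp, 4411 with the most distant values dropped and 378 without those arrays. For the interaction, 2 became 23 with normexp, 1 with quantile normalization, 7 in Cy5 alone, 0 among probes well above background, 1 with the slide block, 33696 with the most distant values dropped and 575 without those arrays.

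With each array left out in turn, these counts ran from 4420 to 5876, from 4312 to 6158, from 0 to 26, from 5803 to 6540, from 4665 to 5998, from 13776 to 14840, from 187 to 504 (504 without female RAR replicate 1), from 211 to 335 and from 0 to 7, in the same order. The replicate numbers did not pair the samples, since same-numbered samples of different groups had correlations of deviations from -0.164 to 0.222 (median -0.00359) and 8 of 24 correlated best with their own number. With the replicate block the 2 calls of the high dose against the low dose became 1, those of the interaction became 1, and no other of these counts moved by over 1.5 times.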
